A study of Mus musculus with 8 samples.

Results

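Small nucleolar RNA (snoRNA) host genes are transcription units that carry snoRNAs inside their gene bodies, and the 9 members of this class described here were Gas5, Snhg1, Snhg3, Snhg5, Snhg6, Snhg7, Snhg8, Snhg11 and Snhg12. They are known mainly as long noncoding RNAs, though GENCODE M21 lists Snhg11 as protein coding. They were taken by symbol from a table of 38610 gene symbols, and all 9 passed the filter on low values that left 13188 genes for testing. The cells were CJ9 mouse embryonic stem (ES) cells of the 129S4/SvJae strain, grown in serum medium for 4 days after withdrawal of leukemia inhibitory factor (LIF), the cytokine that holds ES cells in the undifferentiated state. There were 3 libraries labelled EVX1 KO (knockout of Evx1, a homeobox gene of the primitive streak), 3 of Evx1as KO (knockout of the long noncoding RNA that overlaps Evx1 in the deposited coordinates) and 2 of wild-type (WT) cells, and all 8 shared the strain, the LIF withdrawal and the day. The series title names CRISPR as the means of knockout. The labels do not say how many clones were used, or whether replicates were separate cultures, so p-values measure the spread between these libraries, which may be technical.

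A snoRNA is a short RNA of the nucleolus that guides chemical changes on ribosomal and spliceosomal RNA. Box C/D snoRNAs guide methylation of the ribose and box H/ACA snoRNAs guide conversion of uridine to pseudouridine. In mammals most snoRNAs are cut out of the introns of a host transcript, while the spliced exons leave as a polyadenylated RNA. Many of these hosts begin with a pyrimidine tract, as the mRNAs of ribosomal proteins do, and several of their spliced RNAs are destroyed by nonsense-mediated decay, the pathway that removes RNAs with early stop codons. Gas5 was named for its accumulation in growth-arrested cells, and in human cells its RNA has been described as a decoy for the glucocorticoid receptor. The libraries here were made from poly(A)-selected RNA, so the values below are levels of the host transcripts, and the snoRNAs themselves were not measured.

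The 9 hosts differ in what they carry, and the snoRNAs of the hosts that changed are shown first because they are what such a transcript delivers. In GENCODE M21 (GRCm38) 34 annotated snoRNA entries at 31 positions lay inside the 9 hosts on the same strand, with 10 entries in Gas5, 8 in Snhg1, 5 in Snhg12, 3 in Snhg7, 2 each in Snhg3, Snhg5 and Snhg11, and 1 each in Snhg6 and Snhg8. Their lengths ran from 60 to 205 bases. A search for TGATGA in the first 25 bases (C box) and CTGA in the last 20 (D box) found both in 18 entries, a search for ACA in the last 8 bases of entries of 100 bases or more found it in 11, and 5 entries had neither. Host exons were not given there for Snhg7, and of the 31 entries in the other hosts 28 overlapped an exon of at least 1 annotated host transcript, so the annotation does not place them all in introns. Capitals mark the boxes found. Snhg6 holds Snord87 at chr1:9942463-9942549 on the minus strand.
Snord87: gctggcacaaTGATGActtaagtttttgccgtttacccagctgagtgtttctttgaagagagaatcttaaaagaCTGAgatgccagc
Gas5 holds, among others, Snord47 at chr1:161038082-161038158 and Snord80 at chr1:161037601-161037681 on the plus strand.
Snord47: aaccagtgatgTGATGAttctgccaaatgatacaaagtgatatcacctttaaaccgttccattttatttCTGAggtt
Snord80: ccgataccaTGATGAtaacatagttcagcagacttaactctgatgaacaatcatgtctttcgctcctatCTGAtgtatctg
Snhg11 holds Gm25187 at chr2:158378222-158378354 and Gm25129 at chr2:158379534-158379666 on the plus strand, both with an ACA at the very end.
Gm25187: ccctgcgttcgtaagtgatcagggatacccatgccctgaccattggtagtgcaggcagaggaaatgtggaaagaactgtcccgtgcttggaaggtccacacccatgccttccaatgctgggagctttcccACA
Gm25129: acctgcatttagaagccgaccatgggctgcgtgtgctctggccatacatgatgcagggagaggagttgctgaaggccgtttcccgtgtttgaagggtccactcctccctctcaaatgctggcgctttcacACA
Snhg1 holds Gm25855 at chr19:8723993-8724064 on the plus strand as the first of its 8 entries, and Snhg7 holds Snora17 at chr2:26639190-26639321 on the minus strand.
Gm25855: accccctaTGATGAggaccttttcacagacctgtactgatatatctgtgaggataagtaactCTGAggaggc
Snora17: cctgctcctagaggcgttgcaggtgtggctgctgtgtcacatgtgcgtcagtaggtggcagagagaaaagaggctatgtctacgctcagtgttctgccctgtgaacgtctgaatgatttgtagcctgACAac

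The starts of the hosts are shown because a tract of pyrimidines at the first base is the mark of the 5′ terminal oligopyrimidine (TOP) class. RefSeq promoter windows on GRCm38.p6 were found for 8 of the 9 members, with 2 start sites for Gas5, and were cut to 35 bases before the annotated start and 40 from it. Capitals mark the longest run of C and T of at least 5 that begins within 10 bases of the start.
Gas5, upstream start: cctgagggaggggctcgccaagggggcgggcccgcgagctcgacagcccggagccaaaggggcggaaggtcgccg
Gas5, downstream start: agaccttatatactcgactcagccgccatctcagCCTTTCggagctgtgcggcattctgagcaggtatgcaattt
Snhg1: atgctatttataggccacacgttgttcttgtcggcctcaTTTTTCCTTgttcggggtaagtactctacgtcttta
Snhg3: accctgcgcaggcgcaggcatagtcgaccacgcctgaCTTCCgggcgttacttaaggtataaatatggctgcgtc
Snhg5: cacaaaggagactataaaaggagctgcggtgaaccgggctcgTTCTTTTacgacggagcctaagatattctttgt
Snhg7: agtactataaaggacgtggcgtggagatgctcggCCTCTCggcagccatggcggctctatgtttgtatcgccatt
Snhg8: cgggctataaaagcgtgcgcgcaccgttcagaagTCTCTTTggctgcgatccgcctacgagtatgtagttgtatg
Snhg11: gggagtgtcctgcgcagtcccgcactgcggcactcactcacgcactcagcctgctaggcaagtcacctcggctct
Snhg12: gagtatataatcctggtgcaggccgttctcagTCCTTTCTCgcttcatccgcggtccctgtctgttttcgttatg
Such a run stood in 7 of the 9 windows, against 38.0% of 32851 RefSeq promoters, and a run of at least 7 stood in 4 of 9 (Snhg1, Snhg5, Snhg8 and Snhg12), against 14.4% of promoters. The Snhg11 window and the upstream Gas5 window had none. The run covered the annotated first base in the downstream Gas5 window and for Snhg7, Snhg8 and Snhg12. It began 2, 4 and 7 bases past that base for Snhg3, Snhg1 and Snhg5. The letters TATAA, searched on the strand of the gene between 40 and 15 bases before the start, were present for Snhg5, Snhg7, Snhg8 and Snhg12, against 3.56% of promoters. The letters CACGTG, searched over the whole 300-base window and the same on both strands, were in 0 of 9 windows and in 7.15% of promoters.

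Expression was deposited as FPKM, which counts fragments per length of transcript and per size of library, and the absolute depth is unknown. Summed FPKM ran from 531523 to 587798 per library, and from 12244 to 12442 genes reached 1 FPKM. Depth estimated from the steps between low values, relative to WT replicate 1, was 0.989 to 1.045 in EVX1 KO, 0.863 to 0.976 in Evx1as KO and 1.187 in WT replicate 2. The target of the Evx1as knockout (listed as 5730457N03Rik) was at 5.01 to 8.81 FPKM in EVX1 KO, 0.0485 to 0.104 in Evx1as KO and 5.36 to 6.75 in WT. The Evx1 transcript was at 20.8 to 31.7 FPKM in EVX1 KO, 0.541 to 3.84 in Evx1as KO and 22.0 to 31.2 in WT, so the RNA does not check the label EVX1 KO. The deposited positions of Evx1as (chr6:52258382-52264826) and Evx1 (chr6:52263491-52268372) overlap, and how reads were divided between them was not tested. Of 9 markers of primitive streak and mesoderm, 8 were lower in Evx1as KO than in WT (5 without WT replicate 1 or 2), with a summed level of 466 to 528 FPKM in EVX1 KO, 82.6 to 209 in Evx1as KO and 463 to 502 in WT. Only Msgn1 of these 9 was called in EVX1 KO against WT, lower at 0.969 to 3.07 against 16.1 to 18.7 FPKM. That difference was -2.62 on the log2 scale (limma, adjusted p = 0.0124), a call lost in some fits with 1 library left out. Of 7 tested markers of undifferentiated ES cells, 3 (Sox2, Nanog and Pou5f1) were higher and 1 (Tbx3) lower in Evx1as KO. The summed level of all 8 listed markers, tested or not, was 504 to 523 FPKM in EVX1 KO, 654 to 717 in Evx1as KO and 485 to 501 in WT. Against WT, 0 of the 7 tested were called in EVX1 KO (1 higher and 2 lower at an unadjusted p under 0.05, limma). In that comparison 1.24% of all genes tested were called. Nanog averaged 98.5 FPKM in EVX1 KO and 37.1 in WT (adjusted p = 0.0538), and Dppa5a 28.6 and 78.1 (0.0862). Markers of fibroblasts or feeder cells summed to 20.4 to 26.4 FPKM in EVX1 KO, 13.5 to 23.3 in Evx1as KO and 21.1 to 35.2 in WT. The part of these differences in markers of cell state in the results on host genes was not tested, and in bulk RNA a change in the mix of cells and a change of RNA per cell cannot be told apart.

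All 9 host genes were detected in all 8 libraries, at low to moderate levels. Summed over the 9, they stood at 85.0, 101 and 91.3 FPKM in EVX1 KO, at 110, 91.8 and 95.4 FPKM in Evx1as KO and at 69.5 and 75.1 FPKM in WT. Every knockout library was above both WT libraries. The most abundant member was Snhg1 or Snhg12 in every library, with 21.4% to 29.6% of the sum, and Snhg3 was the lowest in every library. Snhg8 was counted by its own entry, without the more abundant overlapping entry described below. Snhg1, Snhg12 and Snhg5 held the first 3 places in 7 of the 8 libraries, and their order among themselves changed between replicates. The place of Gas5 differed more: it ranked 4th or 5th in the EVX1 KO libraries, 7th or 8th in those of Evx1as KO and 5th or 6th in WT.

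**Figure D1:**
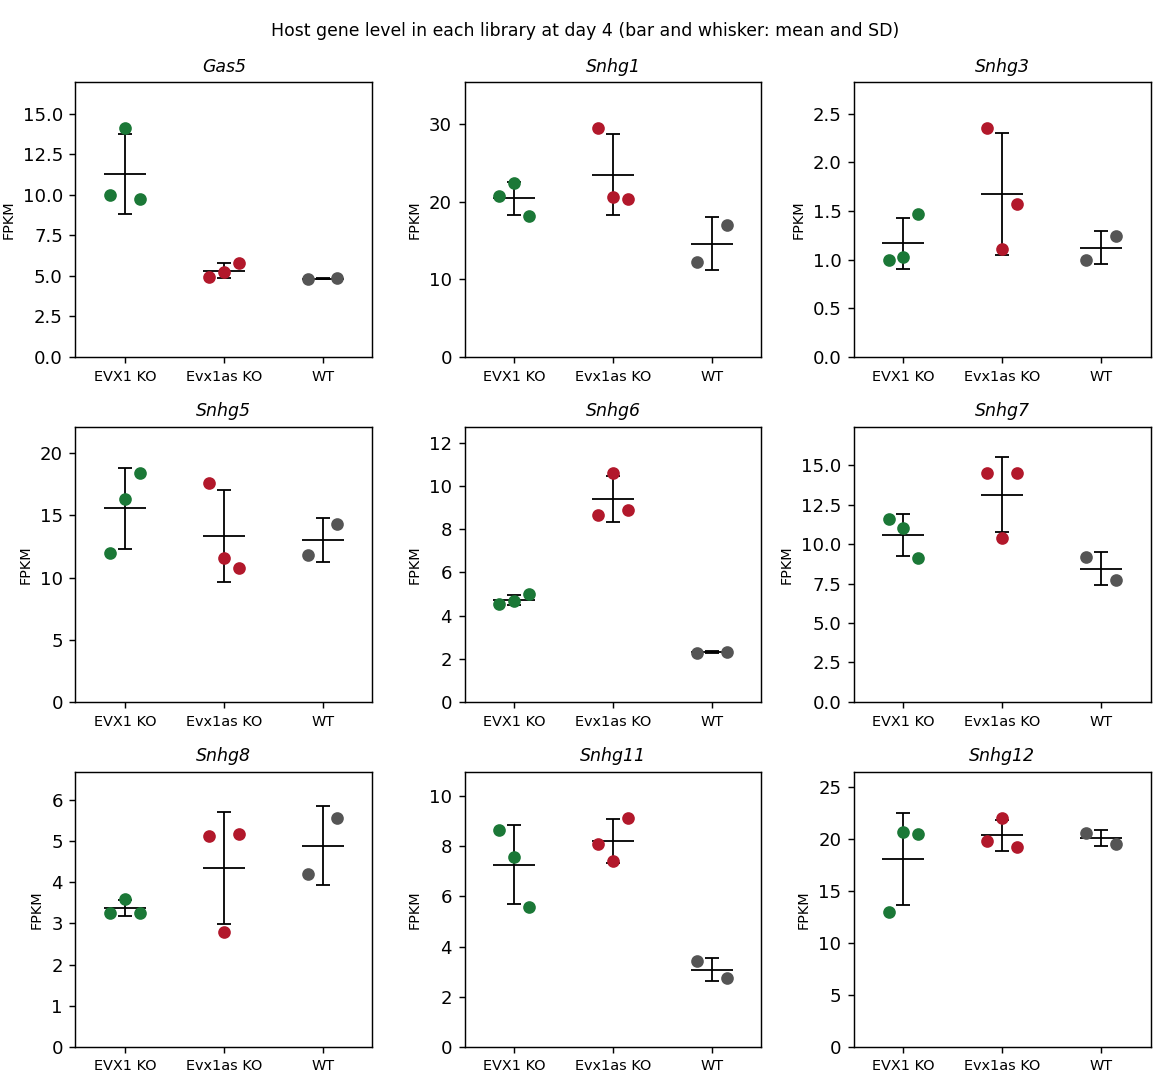
Level of each host gene in FPKM (vertical axis, linear from 0, a scale of its own for each gene) in the EVX1 KO, Evx1as KO and WT libraries; points are libraries, the bar is the mean and the whisker the SD. The 3 EVX1 KO points of Gas5 (9.73 to 14.1 FPKM) lie above all others, Snhg6 forms 3 separate levels, and Snhg11 is lower in both WT libraries than in any knockout library.

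Differences were tested with limma on log2(FPKM + 1), with Benjamini-Hochberg adjustment over all 13188 genes, and a gene was called at an adjusted p under 0.05. Fold changes are on that scale, which understates the change of low genes. In Evx1as KO against WT, 4 of 9 host genes were higher and 0 lower (0 at an unadjusted p under 0.05), against 13.0% of all genes tested called higher and 11.4% called lower. In EVX1 KO against WT, 3 of 9 were higher and 0 lower (0 unadjusted), against 0.690% of all genes higher and 0.554% lower. In EVX1 KO against Evx1as KO, 1 was higher and 1 lower, against 10.7% and 11.3% of all genes. The median log2 fold change over the 9 was 0.31, 0.29 and -0.19 in these comparisons, where that over all genes tested was 0.02, 0.02 and -0.00. The 2 comparisons against WT share the same WT libraries. In EVX1 KO against WT the count of 3 fell to 0 without EVX1 KO replicate 1 or 2 or Evx1as KO replicate 3. It was also 0 with no filter on low values, with only the 2 groups in the fit and with a block on replicate number. In Evx1as KO against WT the count of 4 was 2 with no filter. The members were chosen with earlier results of these data known, so the shares of all genes are no test of the class.

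**Figure D2:**
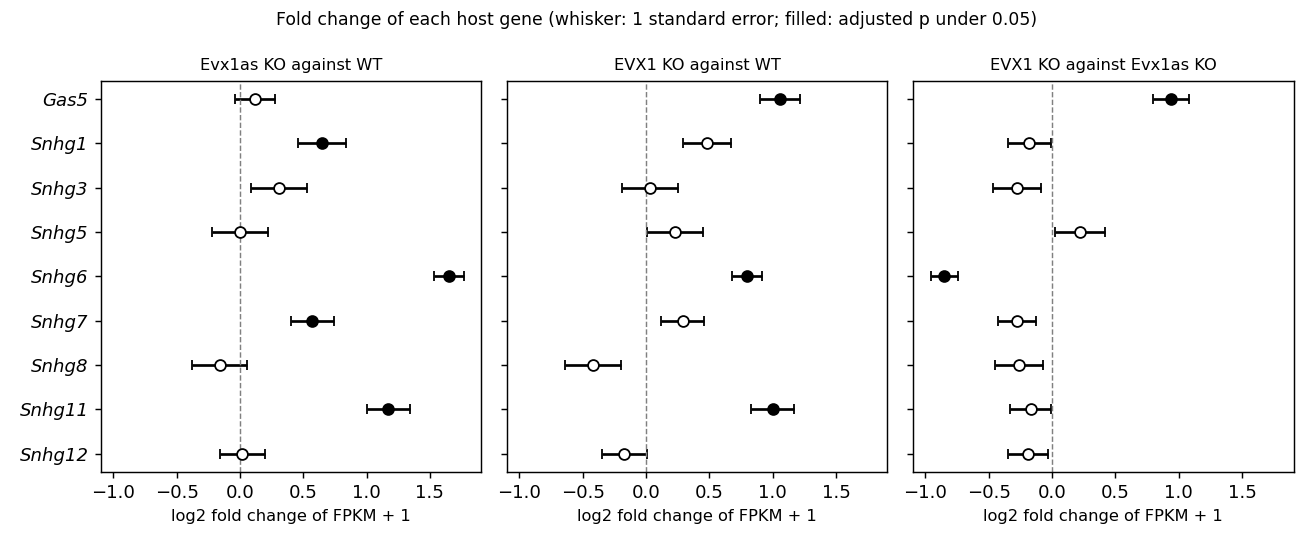
Log2 fold change of FPKM + 1 (horizontal axis) of each host gene in the 3 comparisons, with a whisker of 1 standard error; filled points had an adjusted p under 0.05. Snhg6 has the largest of these fold changes against WT in Evx1as KO (1.65) and Gas5 in EVX1 KO (1.06), and these 2 genes are the called points of the direct comparison.

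Snhg6, the host of Snord87, formed 3 levels that did not overlap. Its values were 4.53, 4.68 and 4.98 FPKM in EVX1 KO, 8.64, 10.6 and 8.90 FPKM in Evx1as KO and 2.26 and 2.33 FPKM in WT. Evx1as KO was highest, EVX1 KO intermediate and WT lowest in every library. It rose in Evx1as KO, with means of 9.39 ± 1.09 FPKM (SD, n = 3) against 2.30 ± 0.0514 FPKM in WT (n = 2), a ratio of 4.09 and a log2 fold change of 1.65 ± 0.12 (SE, adjusted p = 2.84e-04). That fold change was the 64th highest of 13188 genes. It also rose in EVX1 KO, which averaged 4.73 ± 0.229 FPKM, a ratio to WT of 2.06 and a log2 fold change of 0.80 ± 0.12 (adjusted p = 0.0276). Set against Evx1as KO directly, EVX1 KO was lower by -0.85 ± 0.11 on the log2 scale (adjusted p = 0.00134). The call in Evx1as KO and that of the direct comparison held in all 18 alternatives, with adjusted p up to 0.00567 and 0.00906. The call of EVX1 KO against WT was lost without EVX1 KO replicate 1 or 2 (adjusted p = 0.0582 and 0.115), without Evx1as KO replicate 3 (0.0595) and without WT replicate 1 or 2 (0.176 and 0.0964), with a fold change of 0.78 to 0.82 in each. No filter on low values (0.0586), a fit of only the 2 groups (0.0790) and a block on replicate number (0.0693) also ended it. In the coordinates of the deposited table, which are not those of GRCm38, Snhg6 stands at chr1:9932105-9934199. Mcmdc2 ends 1070 bp before it and Ppp1r42 begins 24507 bp after it, and neither exceeded 0.0523 FPKM in any library.

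Gas5 rose only in the libraries labelled EVX1 KO, and the difference between the knockouts was itself called. It stood at 10, 14.1 and 9.73 FPKM in EVX1 KO, at 4.91, 5.26 and 5.79 FPKM in Evx1as KO and at 4.80 and 4.85 FPKM in WT. The EVX1 KO libraries were all above the others, and those of Evx1as KO began just above WT. The mean of EVX1 KO, 11.3 ± 2.44 FPKM, was 2.34 times the WT mean of 4.82 ± 0.0351 FPKM, a log2 fold change of 1.06 ± 0.16 (adjusted p = 0.0266), which placed it 66th of 13188 genes. Evx1as KO averaged 5.32 ± 0.443 FPKM and was not called against WT, with a difference of 0.12 ± 0.16 on the log2 scale (95% interval -0.24 to 0.47, adjusted p = 0.627). EVX1 KO exceeded Evx1as KO by 0.94 ± 0.14 on the log2 scale (ratio of means 2.12, adjusted p = 0.00297), in all 18 alternatives (adjusted p up to 0.0135). The call of EVX1 KO against WT was lost without EVX1 KO replicate 1 or 2 (0.0507 and 0.0751), Evx1as KO replicate 3 (0.0505) and WT replicate 1 or 2 (0.176 and 0.100), at fold changes of 0.90 to 1.13. It was also lost with no filter on low values (0.0666), with only the 2 groups in the fit (0.0790) and with a block on replicate number (0.0602).

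Gas5 and Snhg6 both lie on chromosome 1, where many genes moved together. The median deviation of 470 chromosome 1 genes averaging 5 FPKM or more was 0.14, 0.13 and 0.12 on the log2 scale in EVX1 KO, -0.10, -0.09 and -0.09 in Evx1as KO, and 0.02 and -0.10 in WT. On the other chromosomes that hold members it stayed between -0.03 and 0.04 in every library. With each library centred on its chromosome medians, Gas5 kept a log2 fold change of 0.89 in EVX1 KO against WT (adjusted p = 0.0364) and 0.72 against Evx1as KO (0.00845). Snhg6 then had 1.70 in Evx1as KO against WT (2.73e-04), 0.63 in EVX1 KO against WT (0.0459) and -1.08 in EVX1 KO against Evx1as KO (6.04e-04). The 5 calls of these genes therefore held on the centred scale. In the deposited table Gas5 stands at chr1:162964552-162968668, 162 bp after Zbtb37, a zinc finger gene. Zbtb37 was at 3.08, 2.55 and 2.91 FPKM in EVX1 KO, 1.14, 1.69 and 1.11 in Evx1as KO and 1.86 and 2.16 in WT, and was higher in EVX1 KO than in Evx1as KO by 0.74 on the log2 scale (adjusted p = 0.00836). It was not called in EVX1 KO against WT (0.35, adjusted p = 0.244) or in Evx1as KO against WT (-0.39, 0.110).

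Snhg11, which is abundant in mouse neurons, rose in both knockouts to similar levels. It stood at 8.67, 7.56 and 5.58 FPKM in EVX1 KO, at 8.11, 7.41 and 9.13 FPKM in Evx1as KO and at 3.42 and 2.75 FPKM in WT. Every knockout library exceeded both WT libraries, and the knockouts overlapped each other. In Evx1as KO the mean was 8.21 ± 0.863 FPKM against 3.09 ± 0.474 FPKM in WT, a ratio of 2.66 and a log2 fold change of 1.17 ± 0.17 (adjusted p = 0.00294), called in all 18 alternatives (up to 0.0273). In EVX1 KO the mean was 7.27 ± 1.56 FPKM, a ratio of 2.35 and a log2 fold change of 1.00 ± 0.17 (adjusted p = 0.0381). This last call was the least stable of those against WT and was lost in 11 of 18 alternatives, among them the omission of any library but EVX1 KO replicate 3 (adjusted p = 0.0510 to 0.176, fold change 0.88 to 1.12). The knockouts differed by -0.17 ± 0.16 on the log2 scale (95% interval -0.52 to 0.18, adjusted p = 0.461). The table places Snhg11 at chr2:158201373-158211881, between 9430008C03Rik 14115 bp before it and Ralgapb 23707 bp after it, and neither neighbour was called in any comparison.

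Snhg1 and Snhg7 rose in Evx1as KO by less. Snhg1, the host of U22 and several other box C/D snoRNAs, stood at 20.8, 22.4 and 18.2 FPKM in EVX1 KO, at 29.5, 20.6 and 20.4 FPKM in Evx1as KO and at 12.2 and 17.0 FPKM in WT. No knockout library was as low as either WT library. Evx1as KO averaged 23.5 ± 5.21 FPKM against 14.6 ± 3.38 FPKM in WT, a log2 fold change of 0.65 ± 0.19 (ratio 1.61, adjusted p = 0.0349). EVX1 KO averaged 20.5 ± 2.10 FPKM and was not called against WT, with 0.48 ± 0.19 (95% interval 0.05 to 0.90, adjusted p = 0.193), nor against Evx1as KO, with -0.18 ± 0.17 (-0.56 to 0.20, 0.479). The call in Evx1as KO was lost without WT replicate 1 (log2 fold change 0.43, adjusted p = 0.223), Evx1as KO replicate 1 (0.48, 0.0796) or replicate 3 (0.74, 0.0507), and EVX1 KO replicate 2 (0.65, 0.0504). It was also lost with no filter on low values (0.0863) and with only the 2 groups in the fit (0.0544). In the table Snhg1 stands at chr19:8797976-8800816, 117 bp after Slc3a2, the heavy chain of an amino acid transporter, which was at 76.8 to 99.1 FPKM in EVX1 KO, 82.0 to 97.8 in Evx1as KO and 79.1 to 84.6 in WT and was not called.

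Snhg7, the host of Snora17 and Snora43, stood at 11.6, 11 and 9.09 FPKM in EVX1 KO, at 14.5, 10.4 and 14.5 FPKM in Evx1as KO and at 9.20 and 7.70 FPKM in WT. The Evx1as KO libraries were all above WT, and EVX1 KO overlapped both. Evx1as KO averaged 13.1 ± 2.38 FPKM against 8.45 ± 1.06 FPKM in WT, a log2 fold change of 0.57 ± 0.17 (ratio 1.55, adjusted p = 0.0373). EVX1 KO averaged 10.6 ± 1.33 FPKM, with 0.29 ± 0.17 against WT (95% interval -0.08 to 0.67, adjusted p = 0.345) and -0.28 ± 0.15 against Evx1as KO (-0.61 to 0.06, 0.212). The call in Evx1as KO was lost without either WT library (adjusted p = 0.0785 without replicate 1 and 0.201 without replicate 2), without Evx1as KO replicate 1 or 3 (0.104 and 0.113) or without EVX1 KO replicate 2 (0.0576), and with no filter on low values (0.0845). Fam69b, 678 bp before Snhg7 (chr2:26492695-26495764 in the table), was not called. Snhg7 and Snhg11 share chromosome 2, whose median moved by no more than 0.03 in any library.

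**Figure D3:**
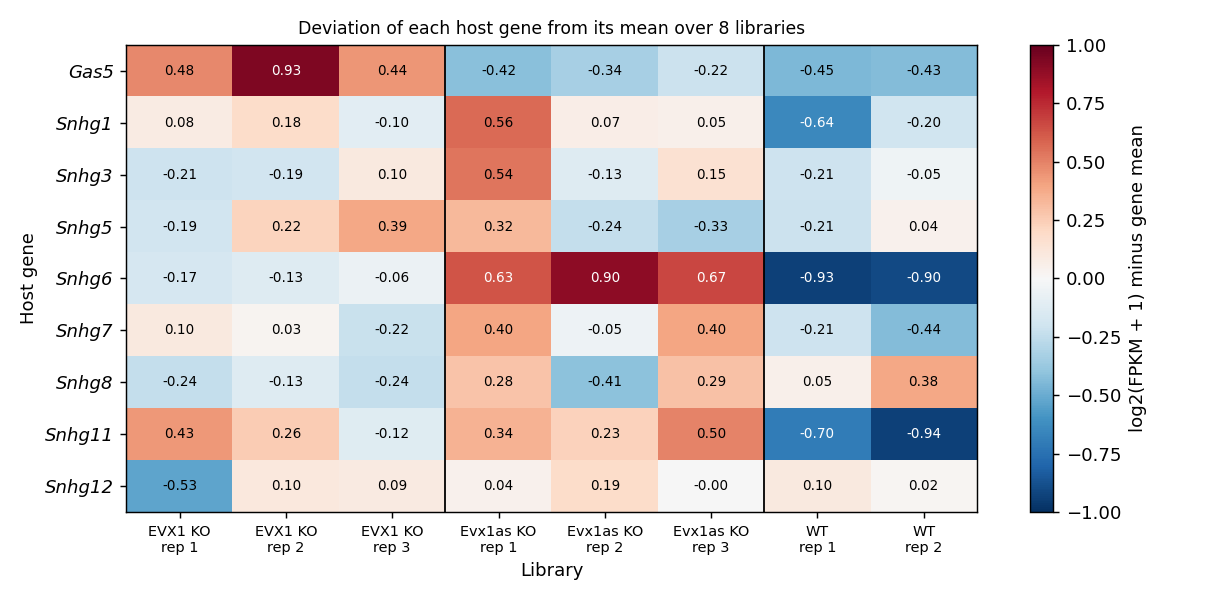
Deviation of log2(FPKM + 1) from the gene's mean over 8 libraries (colour and printed value), host genes down the page and libraries across, in the order EVX1 KO, Evx1as KO, WT. Snhg6 runs from -0.93 in WT replicate 1 to 0.90 in Evx1as KO replicate 2, Gas5 is positive in the EVX1 KO libraries and negative in the other 5, and Snhg12 departs mainly in EVX1 KO replicate 1 (-0.53).

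The other 4 host genes were not called in any comparison. Snhg12, which carries box H/ACA snoRNAs and Snord99, stood at 13.0, 20.7 and 20.5 FPKM in EVX1 KO, at 19.8, 22.0 and 19.2 FPKM in Evx1as KO and at 20.6 and 19.5 FPKM in WT. One library, EVX1 KO replicate 1, lay apart from the other 7. The log2 difference was 0.02 in Evx1as KO against WT (95% interval -0.40 to 0.43, adjusted p = 0.954), -0.17 in EVX1 KO against WT (-0.58 to 0.24, 0.627) and -0.19 between the knockouts (-0.56 to 0.18, 0.439). Its neighbour Trnau1ap, 738 bp after it (Snhg12 is at chr4:131864592-131866939 in the table), was lower in EVX1 KO than in Evx1as KO by -0.48 on the log2 scale (adjusted p = 0.0267). The values of Trnau1ap were 15.4, 13.5 and 11.1 FPKM in EVX1 KO, 20.6, 17.8 and 18.5 in Evx1as KO and 18.1 and 15.3 in WT.

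Snhg5, the host of Snord50a and Snord50b, stood at 12.0, 16.3 and 18.4 FPKM in EVX1 KO, at 17.6, 11.6 and 10.8 FPKM in Evx1as KO and at 11.8 and 14.3 FPKM in WT. The groups overlapped in all 3 comparisons. The log2 difference was 0.00 in Evx1as KO against WT (95% interval -0.50 to 0.51), 0.23 in EVX1 KO against WT (-0.28 to 0.73) and 0.22 between the knockouts (-0.23 to 0.67), with adjusted p of 0.997, 0.594 and 0.449. The table lists Snhg5 at chr9:88415890-88417735.

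Snhg3, the host of Snora73a and Snora73b (the U17 snoRNAs), was the least abundant, at 1.00, 1.03 and 1.47 FPKM in EVX1 KO, 2.35, 1.11 and 1.57 FPKM in Evx1as KO and 1.00 and 1.24 FPKM in WT. Evx1as KO replicate 1 was its highest library and the groups overlapped. Its log2 differences were 0.31 in Evx1as KO against WT (95% interval -0.18 to 0.80), 0.03 in EVX1 KO against WT (-0.46 to 0.51) and -0.28 between the knockouts (-0.72 to 0.15), with adjusted p of 0.320, 0.957 and 0.315. The entry (chr4:131907847-131909601 in the table) shares 1451 bp with Gm17300, which was at 5.23 to 8.85 FPKM in EVX1 KO, 6.12 to 6.95 in Evx1as KO and 7.20 to 7.21 in WT and was not called, so how reads were divided between these entries is uncertain.

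Snhg8, the host of Snora24, was the 1 member whose EVX1 KO libraries all lay below WT. It stood at 3.26, 3.59 and 3.26 FPKM in EVX1 KO, at 5.12, 2.78 and 5.16 FPKM in Evx1as KO and at 4.21 and 5.56 FPKM in WT. The log2 difference in EVX1 KO against WT was -0.42 ± 0.22 (95% interval -0.91 to 0.07, adjusted p = 0.301), and 17.9% of all genes tested had EVX1 KO libraries wholly below WT. It was -0.16 ± 0.22 in Evx1as KO against WT (-0.65 to 0.33, 0.625) and -0.26 ± 0.19 between the knockouts (-0.70 to 0.18, 0.368), and the last was called only without Evx1as KO replicate 2 (-0.49, adjusted p = 0.0399). The table's Snhg8 (chr3:123210469-123211254) shares 770 bp, nearly its whole length, with a more abundant entry, BC096391. That entry was at 36.8, 32.1 and 30.0 FPKM in EVX1 KO, 55.2, 54.1 and 67.9 FPKM in Evx1as KO and 40.6 and 33.1 FPKM in WT. BC096391 was higher in Evx1as KO than in WT by 0.67 on the log2 scale (adjusted p = 0.00995) and lower in EVX1 KO than in Evx1as KO by -0.82 (0.00301), comparisons where Snhg8 was not called. How reads were divided between these entries was not tested, and the level of Snhg8 is uncertain. The counts, sums and ranks of host genes given here use the Snhg8 entry alone.

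Counted by libraries that did not overlap, 5 of 9 host genes in Evx1as KO lay wholly above WT and 0 below, against 29.5% and 26.2% of all genes tested. In EVX1 KO 4 lay above WT and 1 below, against 21.2% and 17.9%. Between the knockouts 1 lay above and 1 below, against 20.1% and 20.8%.

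**Figure D4:**
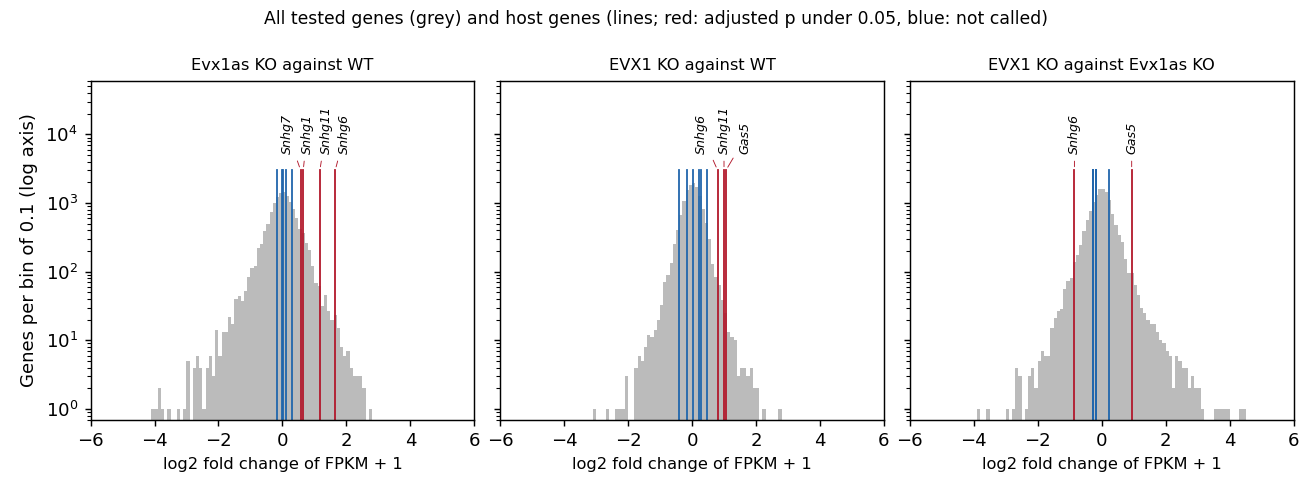
Number of genes per bin of 0.1 (vertical log axis) by log2 fold change of FPKM + 1 (horizontal axis) for the 13188 genes tested in each comparison, with a vertical line for each host gene, red where called and blue where not. Called host genes lie to the right of the bulk in both comparisons against WT; the distribution of EVX1 KO against WT is the narrowest, with 1.24% of all genes called, against 24.5% in Evx1as KO against WT and 22.0% in the direct comparison.

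For each member the genes with the most similar course over the 8 libraries were found among 7794 named genes that averaged 5 FPKM or more, by the root mean square (RMS) difference of log2 deviations. Those nearest to Gas5, whose own RMS deviation was 0.50, were Scfd1 (RMS difference 0.172), which acts in vesicle transport, and Emb (0.177), which encodes embigin. Scfd1 was at 11.7 to 12.3 FPKM in EVX1 KO, 6.13 to 8.41 in Evx1as KO and 5.71 to 5.83 in WT. For Snhg6 (own RMS deviation 0.65) they were the cationic amino acid transporter gene Slc7a3 (0.160), the glutathione transferase gene Gstt1 (0.178) and Zic2 (0.196), a zinc finger transcription factor of the epiblast and neural plate. Zic2 was at 48.8, 46.7 and 46.2 FPKM in EVX1 KO, 80.3, 64.2 and 77.5 in Evx1as KO and 22.3 and 24.5 in WT. For Snhg11 (own 0.51) they were the galactokinase gene Galk1 (0.139), Zfp608 (0.174) and Rab11fip4 (0.179).

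The rest of the snoRNA pathway was described from 14 lists of genes besides the 3 lists of markers above. Among other noncoding hosts, 6 of 12 listed genes were found and tested. Meg3, a maternally expressed RNA of an imprinted cluster rich in snoRNAs, was at 152, 132 and 103 FPKM in EVX1 KO, 145, 140 and 121 in Evx1as KO and 101 and 87.5 in WT, and rose in Evx1as KO by 0.52 ± 0.16 on the log2 scale (adjusted p = 0.0426). The host Zfas1 (listed as 1500012F01Rik) was lower in EVX1 KO than in Evx1as KO by -0.44 ± 0.12 on the log2 scale (adjusted p = 0.0341), at 22.3 to 26.1 FPKM in EVX1 KO and 28.8 to 36.4 in Evx1as KO. The call of Meg3 was lost without EVX1 KO replicate 2, Evx1as KO replicate 1 or either WT library, and that of Zfas1 without replicate 1 or 2 of EVX1 KO or replicate 1 or 3 of Evx1as KO. Snhg4 and Snhg10 were not called in any comparison. Snhg4 was at 2.37 to 5.76 FPKM in EVX1 KO, 4.53 to 6.50 in Evx1as KO and 4.00 to 4.14 in WT.

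Ribosomal protein genes that host snoRNAs in their introns rose in Evx1as KO. Of 22 tested, 17 were higher and 0 lower in Evx1as KO against WT (21 higher at an unadjusted p under 0.05), 0 were called in EVX1 KO against WT (3 higher unadjusted), and 19 were lower in EVX1 KO than in Evx1as KO. The median log2 fold change was 0.43, 0.01 and -0.38 in these comparisons. Of all genes tested, 13.0% were higher in Evx1as KO than in WT and 11.3% lower in EVX1 KO than in Evx1as KO. Only 1.24% were called in EVX1 KO against WT, so 0 calls there do not show that the genes of a list were unchanged. Rpl3 was at 1103, 1035 and 1060 FPKM in EVX1 KO, 1666, 1400 and 1704 in Evx1as KO and 1008 and 1013 in WT, and rose in Evx1as KO by 0.65 ± 0.10 (adjusted p = 0.00298). Rps12 was lower in EVX1 KO than in Evx1as KO by -0.58 ± 0.07 (adjusted p = 0.00149). The counts were 16, 0 and 18 under median-ratio scaling. The 17 fell to 9 without WT replicate 2, and the 19 to 11 without Evx1as KO replicate 3.

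Other TOP-class translation genes gave similar counts, with 9 of 16 higher and 0 lower in Evx1as KO against WT, 1 higher in EVX1 KO against WT, and 1 higher and 8 lower in EVX1 KO against Evx1as KO. Eef1a1, the main translation elongation factor, rose in Evx1as KO by 0.69 ± 0.11 on the log2 scale (adjusted p = 0.00397), Eif4b by 0.61 ± 0.10 (0.00369) and Eef1b2, itself a snoRNA host, by 0.60 ± 0.08 (0.00233). Without WT replicate 2 the 9 fell to 5, and the 8 fell to 5 without EVX1 KO replicate 2 or Evx1as KO replicate 1 and to 4 without Evx1as KO replicate 3. The gene called in EVX1 KO was Eif3e, a subunit of initiation factor 3, at 11.5, 12.9 and 17.2 FPKM in EVX1 KO, 6.62, 8.76 and 7.91 in Evx1as KO and 5.52 and 6.25 in WT. It exceeded WT in EVX1 KO by 1.10 ± 0.17 on the log2 scale (adjusted p = 0.0302), a call lost when WT replicate 1, WT replicate 2, EVX1 KO replicate 2 or Evx1as KO replicate 3 was left out. Of 25 protein-coding hosts outside the ribosomal proteins, 5 were higher in Evx1as KO (Eef1b2, Eif4a2, Tomm20, Eef2 and Gnb2l1, of which Eef1b2, Eef2 and Gnb2l1 are also among the 9 TOP genes), 0 were called in EVX1 KO against WT (1 lower unadjusted), and 5 were lower in EVX1 KO than in Evx1as KO. Of all genes tested, 13.0% were higher in Evx1as KO than in WT and 11.3% lower in EVX1 KO than in Evx1as KO. The median log2 fold changes of the 25 hosts were -0.04, -0.06 and -0.04. The 5 higher genes fell to 2 without Evx1as KO replicate 1 or 3 or WT replicate 1 and to 1 without WT replicate 2, and the 5 lower genes to 3 without EVX1 KO replicate 2 or Evx1as KO replicate 1 or 3. Tomm20 lies on chromosome 8, whose median was at -0.38 and -0.30 in EVX1 KO replicates 1 and 2, and 0.08 in replicate 3.

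**Figure D5:**
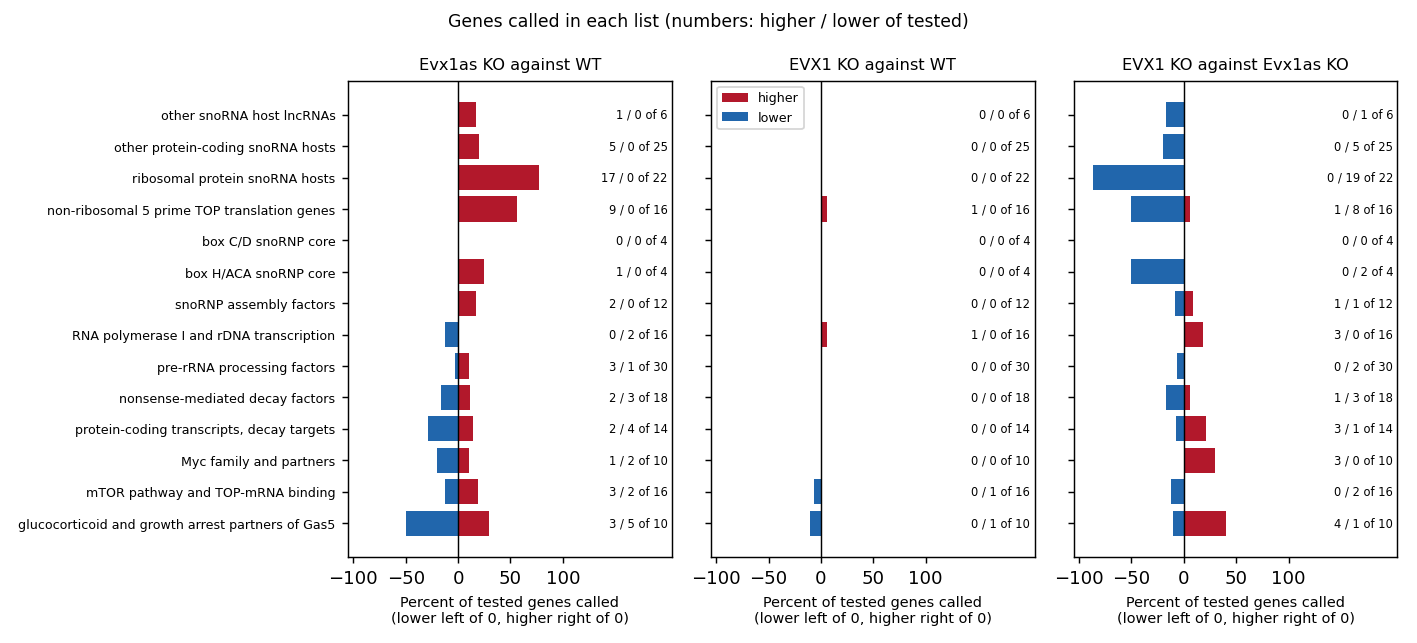
Percent of the tested genes of each list called higher (red, right of 0) or lower (blue, left of 0) in each comparison, with the counts at the right edge of each panel. The bars of ribosomal protein hosts (17 of 22) and other TOP translation genes (9 of 16) are the longest to the right for Evx1as KO against WT, and most lists are empty for EVX1 KO against WT. In that last comparison 1.24% of all genes tested were called.

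Genes of the machinery that builds and uses snoRNAs gave small counts, to be read against the 13.0% of all genes tested that were higher and the 11.4% that were lower in Evx1as KO than in WT. In EVX1 KO against Evx1as KO 10.7% of all genes were higher and 11.3% lower. In EVX1 KO against WT 1.24% were called. None of the 4 core proteins of box C/D particles was called in any comparison (1 lower between the knockouts at an unadjusted p under 0.05, limma). Of the 4 core proteins of box H/ACA particles, Nop10 rose in Evx1as KO by 0.53 ± 0.09 (adjusted p = 0.00532), and Nop10 and Nhp2 were lower in EVX1 KO than in Evx1as KO by -0.52 ± 0.08 (0.00363) and -0.33 ± 0.09 (0.0272). Of 12 assembly factors, Naf1 and Ruvbl2 were higher in Evx1as KO than in WT, with 0.69 ± 0.21 (adjusted p = 0.0407) and 0.27 ± 0.08 (0.0377), and Naf1 lies on chromosome 8. Between the knockouts, Naf1 was lower in EVX1 KO (-0.80) and Nufip1 higher (0.53). In that comparison the median log2 fold change was -0.36 on chromosome 8 and 0.37 on chromosome 14, where Nufip1 lies. Of 16 genes of RNA polymerase I transcription, Taf1a and Cd3eap were lower in Evx1as KO than in WT by -0.70 and -0.58, Taf1b was higher in EVX1 KO than in WT by 0.65 (adjusted p = 0.0460), and these 3 were higher in EVX1 KO than in Evx1as KO. Of 30 pre-rRNA processing factors, Utp14a, Imp3 and Rrp1b were higher and Rrp9 lower in Evx1as KO than in WT, 0 were called in EVX1 KO against WT (3 higher and 4 lower unadjusted), and Utp14a and Imp3 were lower in EVX1 KO than in Evx1as KO. Leaving out single libraries moved these small counts. In Evx1as KO against WT no assembly factor was higher without EVX1 KO replicate 2, Evx1as KO replicate 1 or 3 or either WT library, and 1 was higher without Evx1as KO replicate 2. Of the polymerase I genes 1 was lower there without Evx1as KO replicate 1 or 3 or WT replicate 1, and of the pre-rRNA factors 1 was higher and 0 lower without Evx1as KO replicate 1 or 3 or either WT library, 5 were higher and 2 lower without EVX1 KO replicate 1, and 0 were lower without EVX1 KO replicate 2. The call of Taf1b was lost when any library but EVX1 KO replicate 3 was left out. In EVX1 KO against Evx1as KO, 1 of the 2 H/ACA calls was lost when any knockout library but EVX1 KO replicate 3 was left out, and that of Naf1 without EVX1 KO replicate 2 or Evx1as KO replicate 1 or 3. The 3 polymerase I genes higher in that comparison were 1 without EVX1 KO replicate 2 or Evx1as KO replicate 3.

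Nonsense-mediated decay, which removes several spliced host RNAs, gave calls in both directions. Of all genes tested, 13.0% were higher and 11.4% lower in Evx1as KO than in WT. In EVX1 KO against Evx1as KO these shares were 10.7% and 11.3%. In EVX1 KO against WT 1.24% of all genes were called. Of 18 factors, Dhx34 and Rbm8a were higher and 3 genes, among them Smg9 and Smg5, were lower in Evx1as KO than in WT, 0 were called in EVX1 KO against WT (1 higher and 3 lower unadjusted), and 1 was higher and 3 lower in EVX1 KO against Evx1as KO. Of 14 tested protein-coding targets of the pathway, Trib3 and Ptbp2 were higher and Atf3, Gadd45a, Smg5 and Gadd45b lower in Evx1as KO. Atf3, a stress-responsive transcription factor, was at 10.3, 16.1 and 20.1 FPKM in EVX1 KO, 6.94, 9.08 and 3.99 in Evx1as KO and 25.8 and 24.4 in WT (-1.82 ± 0.31 in Evx1as KO against WT, adjusted p = 0.00479). In EVX1 KO 0 of the 14 were called against WT (3 higher and 3 lower unadjusted). Against Evx1as KO, 3 of the 14 (Atf3, Atf4 and Gadd45a) were higher in EVX1 KO and 1 (Ptbp2) lower. Both of these counts fell in some fits with 1 library left out. In Evx1as KO against WT, leaving out Evx1as KO replicate 1 or 3 or either WT library left 0 factors higher, 0 or 1 lower and 1 target lower. The 2 higher targets were 0 without Evx1as KO replicate 1 or WT replicate 1, and 1 without EVX1 KO replicate 2, Evx1as KO replicate 2 or 3 or WT replicate 2. Between the knockouts 0 factors were lower without EVX1 KO replicate 2 or Evx1as KO replicate 1 or 3, and in EVX1 KO against WT 3 factors and 1 target were lower without EVX1 KO replicate 3.

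Growth and hormone pathways tied to these hosts also gave calls in both directions, to be read against the same shares of all genes tested. Of 10 genes of the Myc family and its partners, Mxi1 was higher and Myc and Max lower in Evx1as KO than in WT, 0 were called in EVX1 KO against WT (3 higher unadjusted), and Myc, Mycl1 and Max were higher in EVX1 KO than in Evx1as KO. Myc was at 29.1, 37.2 and 41.8 FPKM in EVX1 KO, 15.3, 24.2 and 11.6 in Evx1as KO and 31.4 and 36.0 in WT, with a ratio of means of 0.506 in Evx1as KO against WT (adjusted p = 0.0240). All 3 calls of this list in Evx1as KO were lost without Evx1as KO replicate 1 or 3 or without either WT library. Of 16 genes of the mTOR pathway, which governs translation of TOP mRNAs, Ddit4, Tsc1 and Larp1 were higher and Sesn2 and Akt1s1 lower in Evx1as KO, and Akt1s1 was also lower in EVX1 KO than in WT (-0.44 ± 0.07, adjusted p = 0.0344). The 3 higher genes were 0 without Evx1as KO replicate 1 or 3 and 1 without EVX1 KO replicate 2 or either WT library, and the 2 lower genes were 1 without either WT library. The mTOR genes Ddit4 and Tsc1 were lower in EVX1 KO than in Evx1as KO, calls lost in some fits with 1 library left out. Of 10 genes tied to glucocorticoid response or growth arrest, the settings in which Gas5 is known, Fkbp5, Gas2 and Gas6 were higher and Gas1, Sgk1, Ccnd1, Cdkn1a and Tsc22d3 lower in Evx1as KO than in WT. The 5 lower genes were 3 without either WT library, and the 3 higher were 1 without WT replicate 2. Between the knockouts, Sgk1, Ccnd1, Tsc22d3 and Cdkn1a were higher and Fkbp5 lower in EVX1 KO than in Evx1as KO. Both of these counts fell in some fits with 1 library left out. In EVX1 KO, where Gas5 was high, 1 of these 10 was called against WT (3 higher and 2 lower unadjusted). That gene was Cdkn1a, a cyclin-dependent kinase inhibitor, at 102, 93.2 and 90.3 FPKM in EVX1 KO, 74.1, 81.1 and 76.6 in Evx1as KO and 130 and 131 in WT (-0.45 ± 0.08 in EVX1 KO against WT, adjusted p = 0.0438). The calls of Akt1s1 and Cdkn1a in EVX1 KO were both lost when any library but EVX1 KO replicate 3 was left out.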

How the data were processed

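RNA-seq libraries of 3 genotypes at day 4 were compared, with groups taken from the sample titles. FPKM per gene was deposited by the authors as 1 table of 45772 lines, of which 42245 had values; 2660 of 38610 symbols stood on several lines with equal values and were used once. Libraries were made with a TruSeq Stranded mRNA kit, per the labels' protocols. CASAVA, TopHat2 2.0.11 and the builds mm10 and mm9 are named without a role, per the submitters' processing notes. For the software and annotation behind the FPKM, and the use of strand, the sources used here give nothing, so overlapping genes are uncertain.

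A gene was kept if 2 or more of the 8 libraries reached 1 FPKM. Log2(FPKM + 1) of all 8 libraries was fitted with 1 mean per group (limma 3.58.1, R 4.3.3, intensity trend, two-sided, Benjamini-Hochberg over 13188 genes), and 95% intervals came from that fit. Tables were handled with Python 3.11.15, pandas 2.3.3, numpy 2.4.6 and scipy 1.17.1, and figures drawn with matplotlib 3.10.9. The fit was tested on simulated data. No counts are in the table, so no counting interval can be given; 24.3% to 38.6% of low-value genes lay at the step used to estimate relative depth.

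The members and lists were chosen with earlier results of these data known. Text names all members, their neighbours (some genes that this rule names are not reported here), Evx1 and Evx1as, up to 3 called genes with the largest fold change per list, and the 3 genes most like each member (genes with Gm, Rik or XLOC names left out); the other called genes given by name in a list were added after their values were seen. snoRNA sequences came from GENCODE M21 and start sites from RefSeq. Alternatives were other pseudocounts (0.1 and 0.5), filters, scalings, fits, a replicate block and omission of each library.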

Additional observations from a re-analysis of the deposited data

Results flagged for a closer look

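The difference between the knockouts was itself tested and called for 2 of 9 host genes, in opposite directions. Of all 13188 genes tested, 22.0% were called in this comparison, so the count is near the share of all genes. Gas5 was higher in EVX1 KO (11.3 ± 2.44 FPKM) than in Evx1as KO (5.32 ± 0.443 FPKM, SD, n = 3 each), by 0.94 on the log2 scale. Snhg6 was lower in EVX1 KO (4.73 ± 0.229 FPKM) than in Evx1as KO (9.39 ± 1.09 FPKM), with -0.85 on the log2 scale. Both lie on chromosome 1, whose median log2 fold change in this comparison was 0.24.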

How the results depend on the processing

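Over the 18 alternatives, the calls of Snhg6 and Snhg11 in Evx1as KO against WT and of Gas5 and Snhg6 between the knockouts held throughout. With no filter on low values, 2 host genes were higher in Evx1as KO against WT, and the count ran from 2 to 4 with 1 library left out, where the genes called ran from 1421 to 3414. For EVX1 KO against WT 0 host genes were higher with no filter, with only the 2 groups in the fit, or with the replicate block (adjusted p of 0.0602 for Gas5, 0.0693 for Snhg6 and 0.0744 for Snhg11), and 0 to 3 with 1 library left out. Its genes called were 28 with no filter, 27 with 2 groups, 28 with the block, 78 with no intensity trend, 1148 with array weights, and 4 (without EVX1 KO replicate 2) to 634 (without EVX1 KO replicate 3) with 1 library left out; the cause was not tested. Between the knockouts 5552 genes were called with array weights and 1409 to 2666 with 1 library left out, where 1 to 2 host genes were lower.

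Same-numbered libraries deviated together by correlations of -0.099 to 0.076, so the numbers were not taken as pairs. Fold changes near 0 that changed sign were all uncalled. In Evx1as KO against WT, Snhg5 had -0.02 with median-ratio scaling, -0.00 with array weights and -0.20 to 0.13 with 1 library left out, Snhg12 had -0.01 with that scaling, -0.01 with the replicate block and -0.04 to 0.06 with 1 library left out, and Snhg8 had -0.33 to 0.07. In EVX1 KO against WT, Snhg3 had -0.01 with the block, -0.04 with array weights and -0.07 to 0.11 with 1 library left out, and Snhg12 had -0.28 to 0.04. Between the knockouts Snhg12 had -0.30 to 0.02. The FPKM filter at 5 leaves no value for Snhg3. Depth is unknown, and Snhg3, near 1 FPKM, rests on few reads.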
